A study of Mus musculus with 24 samples.

Results

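The genes described here are those of the melanosome, the pigment granule, together with Trpm1, in retinas and pineal glands of mice with a conditional knockout of the transcription factor gene Neurod1 in photoreceptors and pinealocytes. The members were every probe set whose platform annotation named 1 of 8 genes, Mlana, Tyr, Tyrp1, Dct, Pmel, Mitf, Slc45a2 and Trpm1. They came to 17 probe sets of 45101 and 8 genes of 18193. Trpm1 had 4 probe sets, Tyr and Tyrp1 had 3 each, Mitf and Slc45a2 had 2 each, and Dct, Pmel and Mlana had 1 each. The rule itself uses no measured value, but the 8 genes were chosen with earlier results of these data known.

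Pigment cells make melanin inside melanosomes. Tyrosinase (Tyr) starts the synthesis, Tyrp1 and Dct act on later intermediates, Pmel forms the fibrils on which melanin is laid down, Mlana takes part in melanosome maturation and Slc45a2 is a transporter needed for melanin synthesis. Mitf encodes the transcription factor that drives these genes in melanocytes and in the retinal pigment epithelium, the pigmented layer behind the photoreceptors. Trpm1 encodes a cation channel with 2 known homes: pigment cells, where it was first described as melastatin and is a target of Mitf, and the ON bipolar cells of the retina, where it carries the light response. The neural retina and the pineal gland themselves make no melanin in bulk, whereas the pigment epithelium, the choroid and the meninges of pigmented mice hold melanin-bearing cells. The question put to the data was therefore whether Trpm1 moved with the melanin genes or with genes of ON bipolar cells.

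The cKO mice carried floxed Neurod1 on both alleles and 1 copy of Crx-Cre, a transgene whose Crx promoter is active in photoreceptors and pinealocytes. The control mice carried the same 2 floxed alleles and no Cre, so no group had unfloxed Neurod1 and the transgene alone was not among the groups. All mice had the C57BL/6J background, a pigmented strain, were of both sexes and 2 months old, and lived in a light-dark cycle of equal phases. Tissue was taken at night, at zeitgeber time 20 (ZT20, under dim red light), or by day, at ZT6. Each of the 8 groups (cKO and control, ZT20 and ZT6, retina and pineal gland) had 3 pools of 6 retinas or glands, and each pool was hybridised to 1 Affymetrix Mouse 430 2.0 array. The labels do not say how the retina was parted from the pigment epithelium and choroid.

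Signals in the sentences below are on the linear scale as deposited, and the number of arrays limits their precision. Differences are log2 differences after quantile normalisation over the 24 arrays, from limma, with their standard error and a p-value adjusted over all genes tested; a gene passed below 0.05. Array medians lay between 107.1 and 183.1. Neurod1 itself was low in the 3 cKO ZT6 pools of retina, at 4.58% to 12.1% of the control mean, and of pineal gland, at 0.585% to 1.68%. Of the pools labelled cKO ZT20, pool 1 had 5.10% in retina and 0.621% in pineal gland, but pools 2 and 3 had 49.7% and 49.5% in retina and 52.4% and 26.5% in pineal gland. Results that include these pools are also given without them. Whether the Neurod1 signal that remained came from unrecombined cells was not tested.

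Promoter sequences of 5 members were in the RefSeq table used, on build GRCm38.p6, and 6 stretches of 250 bases upstream of a transcript start are shown because they hold letters that Mitf-family factors or cyclic AMP response factors are known to read. In the pigment gene promoters the capitals mark CATGTG or its reverse complement CACATG, the core of the M-box bound by MITF.
Tyr, chr7:87493513-87493762, minus strand: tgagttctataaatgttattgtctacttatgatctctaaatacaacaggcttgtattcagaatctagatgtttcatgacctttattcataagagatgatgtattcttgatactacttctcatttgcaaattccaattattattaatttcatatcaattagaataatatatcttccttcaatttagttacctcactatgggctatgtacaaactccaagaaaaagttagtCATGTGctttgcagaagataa
Tyrp1, chr4:80833963-80834212, plus strand: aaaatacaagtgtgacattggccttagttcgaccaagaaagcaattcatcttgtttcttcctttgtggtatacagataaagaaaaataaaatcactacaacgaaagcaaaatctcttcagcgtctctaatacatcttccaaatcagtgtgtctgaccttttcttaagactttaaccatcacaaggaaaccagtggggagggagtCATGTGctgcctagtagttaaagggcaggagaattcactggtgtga
Dct, chr14:118052247-118052496, minus strand: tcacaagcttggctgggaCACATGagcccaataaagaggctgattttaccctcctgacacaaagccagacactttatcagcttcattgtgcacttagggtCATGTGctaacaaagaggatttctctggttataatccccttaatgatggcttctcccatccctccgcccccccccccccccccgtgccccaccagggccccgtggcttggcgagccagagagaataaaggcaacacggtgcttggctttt
Trpm1, upstream start, chr7:64153585-64153834, plus strand: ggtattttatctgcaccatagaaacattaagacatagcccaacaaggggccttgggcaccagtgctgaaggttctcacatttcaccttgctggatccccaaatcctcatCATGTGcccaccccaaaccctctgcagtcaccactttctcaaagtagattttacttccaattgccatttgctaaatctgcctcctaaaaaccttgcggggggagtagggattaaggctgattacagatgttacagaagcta
The core began 21 bases before the start in Tyr, 46 in Tyrp1, 232 and 150 in Dct and 141 in Trpm1. Trpm1 had a further start downstream, and there the capitals mark the E-box CACGTG, 229 bases before the start.
Trpm1, downstream start, chr7:64185209-64185458, plus strand: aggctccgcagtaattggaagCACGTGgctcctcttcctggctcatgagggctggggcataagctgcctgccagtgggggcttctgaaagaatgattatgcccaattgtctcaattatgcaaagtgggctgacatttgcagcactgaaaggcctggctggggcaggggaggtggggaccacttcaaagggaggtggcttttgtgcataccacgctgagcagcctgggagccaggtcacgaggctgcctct
Mitf had 3 promoters in the table, and 1 of them held TGACGTCA, the cyclic AMP response element, 153 bases before the start and in capitals here.
Mitf, chr6:97991533-97991782, plus strand: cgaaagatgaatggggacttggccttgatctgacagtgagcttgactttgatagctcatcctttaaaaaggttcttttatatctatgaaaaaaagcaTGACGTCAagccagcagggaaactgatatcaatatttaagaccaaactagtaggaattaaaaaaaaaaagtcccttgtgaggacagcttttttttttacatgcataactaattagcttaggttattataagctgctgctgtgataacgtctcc

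Over both strands, CATGTG stood in 4 of these members' 8 promoters and in 12.25% of all 32851 promoters of the same length. CACGTG stood in 1 of the 8 and in 6.02% of all, and TGACGTCA in 1 of the 8 and in 1.546% of all. Its first letters TGACG stood in 1 of the 8 and in 17.77% of all, and TAATCC, the letters that photoreceptor homeobox factors such as Crx read, in 3 of the 8 and in 6.25% of all. Such matches describe the letters only. No array value bears on which Trpm1 start was in use.

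In retina, 7 of the 8 members spanned a wide range over the 12 pools. In each of the 7, control ZT6 pool 3 stood far above the other day controls, and in 6 of them control ZT20 pool 1 stood far above the other night controls, the exception being Slc45a2. The highest signal was 51.7 times the lowest for Mlana, 44.3 times for Pmel, 18.1 times for Trpm1, 17.0 times for Tyrp1, 15.6 times for Slc45a2, 9.88 times for Dct and 7.45 times for Tyr, but 1.93 times for Mitf. Among the 6 melanin genes and Trpm1, the 21 pairwise correlations of deviations from group means over the 12 pools lay between 0.844 and 0.992, with a median of 0.971. These are descriptions over pools that share RNA and array, and no test was applied to them.

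**Figure D1:**
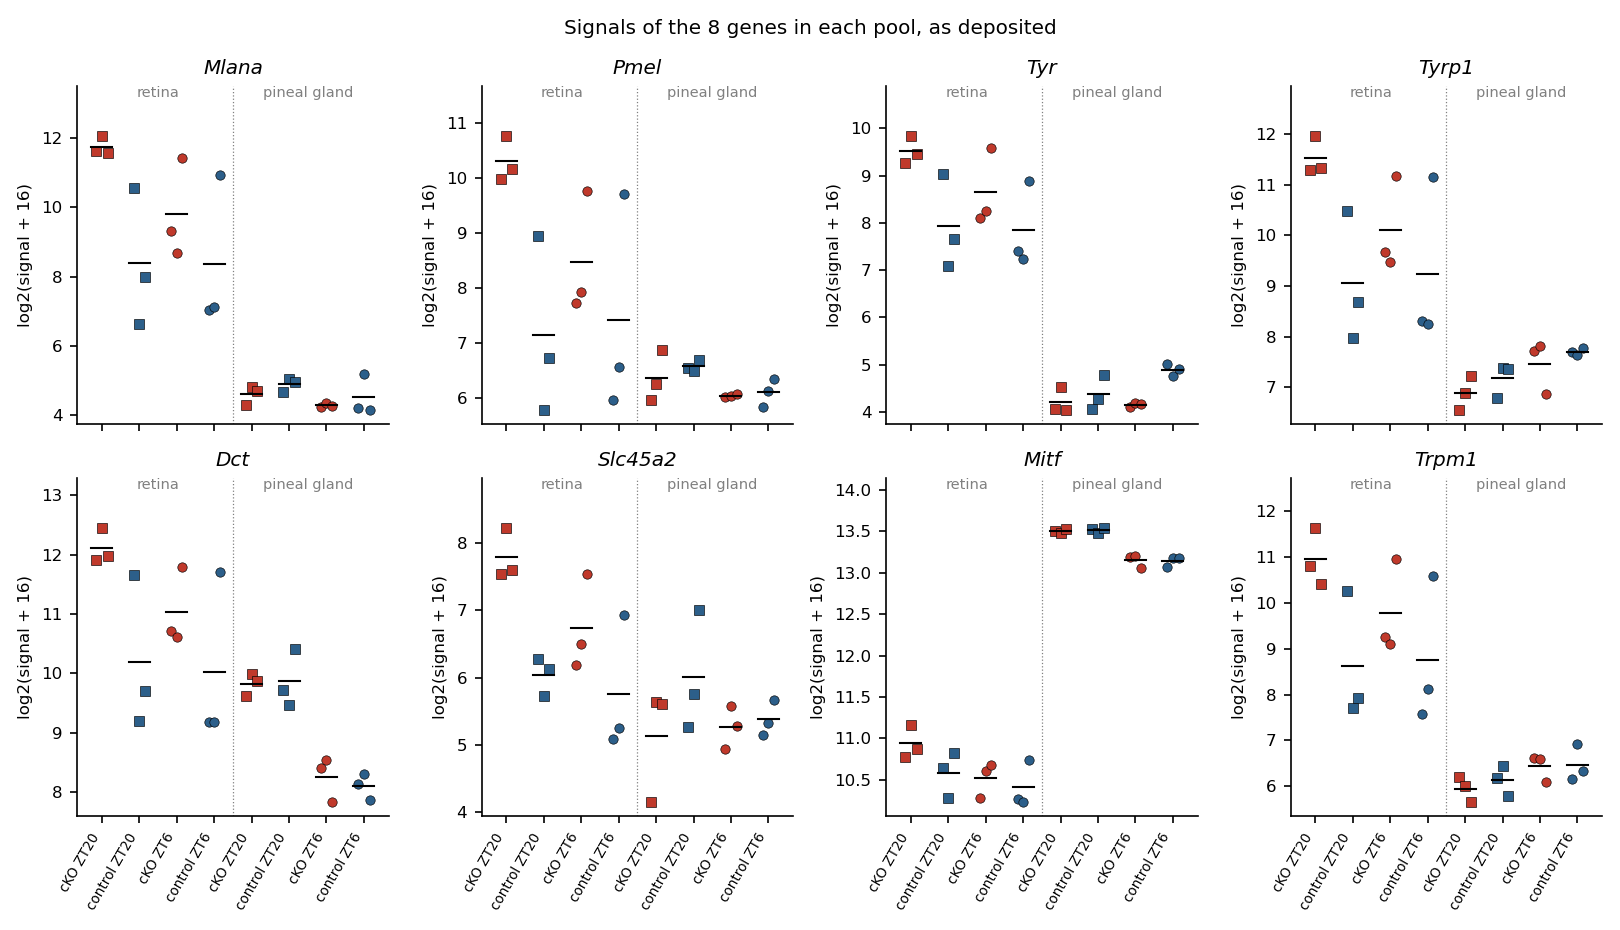
Signal of the 8 members in each of the 24 pools, 1 panel a gene, on the vertical axis as log2(signal as deposited + 16), with groups along the horizontal axis; points are pools and bars are group means (n = 3). In retina, control ZT6 pool 3 is far above the other day controls in 7 of the 8 members and control ZT20 pool 1 far above the other night controls in 6 of them, not in Slc45a2, whereas Mitf spans 1.93 times in retina and is highest in pineal gland.

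Among the melanosome structure genes, Mlana had signals of 3137.9, 4273.3 and 3058.7 in cKO ZT20 retinas, against 1507.6, 82.6 and 241.1 in control ZT20 retinas. By day Mlana had 623.4, 392.6 and 2768.7 in cKO ZT6 retinas, against 116.8, 124.5 and 1951.9 in control ZT6 retinas. At night every cKO pool was above every control pool, while by day control pool 3 was above 2 of the cKO pools. The difference was 3.26 ± 1.09 at ZT20 (adjusted p = 0.0762) and 1.19 ± 1.09 at ZT6 (adjusted p = 0.493), and averaged over both times it was 2.22 ± 0.77 (adjusted p = 0.0485), which passed. Pmel, the fibril protein, had 999.7, 1722.6 and 1135.7 in cKO ZT20 retinas, against 477.9, 38.9 and 89.8 in control ZT20 retinas. By day it had 195.5, 226.5 and 847.4 in cKO ZT6 retinas, against 46.5, 78.7 and 825.2 in control ZT6 retinas. The groups did not overlap at night and did by day, as for Mlana. Its averaged difference was 1.89 ± 0.66 (adjusted p = 0.0520) and did not pass.

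The enzymes were high in the same control pools. Tyrp1 had 2504.7, 3999.1 and 2563.3 in cKO ZT20 retinas, against 1418.8, 235.2 and 397.1 in control ZT20 retinas. At ZT6 Tyrp1 had 801.3, 700.1 and 2307.1 in cKO retinas, against 299.8, 285.9 and 2273.4 in control retinas. Control pool 1 at ZT20 and control pool 3 at ZT6 again stood far above the other controls, and the difference was 2.37 ± 0.76 at ZT20 (adjusted p = 0.0671) and 0.61 ± 0.76 at ZT6 (adjusted p = 0.634). Dct had 3829.5, 5559.5 and 4034.6 in cKO ZT20 retinas, against 3194.9, 572.4 and 817.0 in control ZT20 retinas. For Dct at ZT6 the signals were 1663.1, 1553.9 and 3521.2 in cKO retinas, against 567.5, 562.5 and 3336.8 in control retinas. The night groups of Dct did not overlap, with a difference of 1.82 ± 0.67 (adjusted p = 0.106), and the day difference was 0.77 ± 0.67 (adjusted p = 0.465).

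Tyr, the first enzyme of melanin synthesis, had 598.8, 900.2 and 682.4 in cKO ZT20 retinas, against 504.8, 120.9 and 184.9 in control ZT20 retinas. At ZT6 Tyr had 260.7, 290.5 and 753.7 in cKO retinas, against 152.8, 135.0 and 457.8 in control retinas. The lowest cKO night pool was above control pool 1, and the difference was 1.45 ± 0.55 at ZT20 (adjusted p = 0.119) and 0.50 ± 0.55 at ZT6 (adjusted p = 0.579). In the fit over all probe sets the other Tyr sets, 1448821_at and 1456095_at, had 0.95 ± 0.38 (adjusted p = 0.208) and 1.07 ± 0.50 (adjusted p = 0.291) at ZT20, and the other Tyrp1 sets, 1415862_at and 1439409_x_at, had 2.66 ± 0.82 (adjusted p = 0.0891) and 2.32 ± 0.79 (adjusted p = 0.129).

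Slc45a2, the transporter, had 169.8, 282.3 and 177.7 in cKO ZT20 retinas, against 61.8, 36.7 and 53.7 in control ZT20 retinas. It had 56.9, 74.5 and 170.7 in cKO ZT6 retinas, against 18.1, 22.0 and 106.1 in control ZT6 retinas. Slc45a2 was the other member to pass when averaged over both times, at 1.13 ± 0.35 (adjusted p = 0.0316), with 1.53 ± 0.50 at ZT20 (adjusted p = 0.0707) and 0.73 ± 0.50 at ZT6 (adjusted p = 0.344). Every control signal was under the lowest retinal array median, 107.8, so Slc45a2 entered the test through cKO pools alone. The call rests on dim control signals and is no independent support for a genotype difference. With no filter on dim genes the adjusted p of Slc45a2 was 0.0406 by limma. Its second probe set, 1437430_at, had 24.7 to 107.0 in retina and a difference of 0.24 ± 0.23 averaged over both times (adjusted p = 0.549 over all probe sets). At ZT20 that set had 52.5 to 107.0 in cKO retinas, against 27.3 to 41.0 in control retinas, with a difference of 0.67 ± 0.32 (adjusted p = 0.302), and at ZT6 its difference was -0.20 ± 0.32 (adjusted p = 0.782).

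The Trpm1 probe set used for the gene, 1437445_at, had 1763.1, 3158.1 and 1348.8 in cKO ZT20 retinas, against 1209.8, 194.2 and 225.9 in control ZT20 retinas. At ZT6 it had 595.8, 532.1 and 1969.8 in cKO retinas, against 174.1, 261.0 and 1511.9 in control retinas. Trpm1 was thus high in the same control pools as the melanin genes, save that Slc45a2 stood far out only in control ZT6 pool 3. The night groups of Trpm1 did not overlap as deposited but did after quantile normalisation. The difference was 2.18 ± 0.82 at ZT20 (adjusted p = 0.115), 0.74 ± 0.82 at ZT6 (adjusted p = 0.583) and 1.46 ± 0.58 over both times (adjusted p = 0.0800), and none passed. Leaving out control ZT6 pool 3 or control ZT20 pool 1 brought the averaged Trpm1 difference to 1.94 (adjusted p = 0.0101) and 1.86 (adjusted p = 0.0257). Over all 12 single pools left out in turn, that difference was 1.14 to 1.94 (limma, adjusted p = 0.0101 to 0.185).

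The other 3 Trpm1 probe sets had the same pools high at night. Probe set 1418935_at had 374.7, 663.2 and 447.0 in cKO ZT20 retinas, against 263.5, 74.1 and 129.0 in control ZT20 retinas. Probe set 1437531_at had 564.3, 968.9 and 483.0 in cKO ZT20 retinas, against 320.0, 117.4 and 197.1 in control ZT20 retinas. Probe set 1440241_at had 236.8, 225.2 and 186.6 in cKO ZT20 retinas, against 128.6, 70.6 and 75.3 in control ZT20 retinas. In each of them all cKO night pools were above all control night pools. In the fit over all probe sets, 1440241_at was higher in cKO at ZT20 by 0.94 ± 0.24 (adjusted p = 0.0433) and over both times by 0.57 ± 0.17 (adjusted p = 0.0409). This fit of single probe sets applied no filter on dim signals. At ZT6 1440241_at had 39.8 to 60.1 in control and 58.7 to 94.2 in cKO retinas, under every retinal array median (107.8 to 183.1). Only the cKO ZT20 group was above all of these medians. The 2 calls thus rest on the group where this dim set was high, and no conclusion on Trpm1 is drawn from them. The differences at ZT20 for 1418935_at, 1.53 ± 0.64 (adjusted p = 0.230), and 1437531_at, 1.48 ± 0.52 (adjusted p = 0.142), did not pass. Which Trpm1 transcripts each probe set reads was not analysed here.

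Mitf, the transcription factor that drives these genes in pigment cells, spanned a narrower range. The probe set used for the gene, 1455214_at, had 1739.0, 2273.6 and 1860.8 in cKO ZT20 retinas, against 1583.9, 1227.3 and 1796.2 in control ZT20 retinas. By day it had 1223.5, 1541.8 and 1617.3 in cKO retinas, against 1213.7, 1180.5 and 1696.5 in control retinas. The groups overlapped at both times, and the difference was 0.23 ± 0.18 at ZT20 (adjusted p = 0.470), -0.19 ± 0.18 at ZT6 (adjusted p = 0.508) and 0.024 ± 0.12 over both times (adjusted p = 0.911). The other Mitf probe set, 1422025_at, had 26.1 to 69.2 in all retinal pools.

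**Figure D2:**
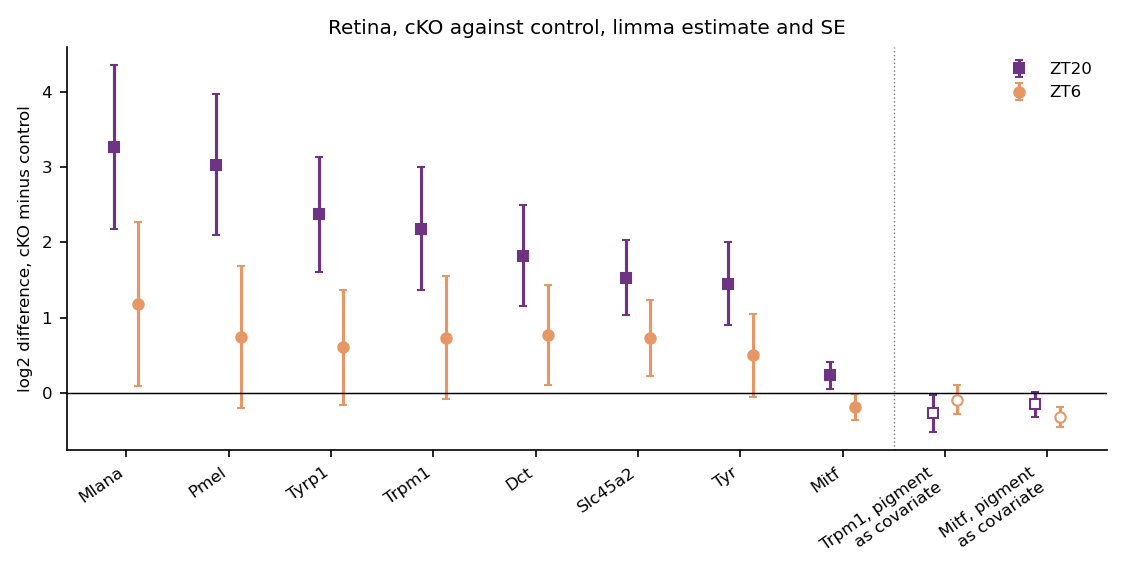
Difference of cKO minus control retinas for the 8 members, as log2 difference with its standard error, at ZT20 and ZT6 (n = 3 pools a group); open symbols are Trpm1 and Mitf with the melanin gene mean of each pool as a covariate. All differences at ZT20 without the covariate are above 0, from 0.23 for Mitf to 3.26 for Mlana, and with the covariate Trpm1 is at -0.27 at ZT20. The covariate itself is higher in every cKO pool than in every control pool at ZT20.

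Counted together, 0 of the 8 members passed at ZT20, where 10.4% of the 11692 genes tested in retina passed, and 0 of 8 passed at ZT6, where 16.9% passed. Averaged over both times, 2 of 8 passed, both higher in cKO, against 25.6% of all genes in either direction and 13.6% higher. With signals as deposited, 4 of 8 passed at ZT20 and 7 of 8 over both times. Mlana's call over both times was lost with no filter on dim genes (adjusted p = 0.0654), over all probe sets, with no variance trend and with robust eBayes, where Slc45a2 still passed. The median difference over the 8 members was 2.00 at ZT20, 0.73 at ZT6 and 1.38 over both times, against -0.0018, 0.018 and 0.0060 over all genes tested. As deposited, all 3 cKO pools were above all 3 control pools at ZT20 in 7 of the 8 members, against 17.9% of all genes, and at ZT6 in 0 of 8, against 36.5% of all genes. All 8 members passed the filter on dim signals in retina, Slc45a2 through cKO pools alone, so its calls rest on dim control signals. Without cKO ZT20 pools 2 and 3, which kept Neurod1 signal, the averaged difference was 2.13 for Mlana (adjusted p = 0.140) and 0.99 for Slc45a2 (adjusted p = 0.125), and 0 of 8 members passed. At ZT20 that left 1 cKO pool, which the fit takes to vary like the other groups, with differences of 3.08 for Mlana (adjusted p = 0.293) and 1.99 for Trpm1 (adjusted p = 0.355), and 0 of 8 passed. Leaving out 1 control pool moved the count of members passing over both times to 7, without control ZT6 pool 3 or without control ZT20 pool 1, and to 6 at ZT20 without one or the other. With each retinal pool left out in turn the count was 0 to 7 over both times and 0 to 6 at ZT20. In pooled tissue, fewer cells of a type and less RNA per cell cannot be told apart.

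No member passed between night and day in retina. Of the 8 members, 0 passed between ZT20 and ZT6 in cKO retinas, where 0.342% of genes passed, and 0 passed in control retinas, where 1.24% passed. The lowest adjusted p was 0.439, for Mitf in cKO retinas. For the difference of the cKO effect between ZT20 and ZT6, 0 of 8 members and 0.0% of genes passed by limma, while 935 genes had an unadjusted p under 0.05. A larger effect of the genotype at night than by day is therefore not shown for any member.

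Trpm1 followed the melanin genes from pool to pool. Deviations from group means over the 12 retinal pools gave r = 0.979 and rho = 0.923 between Trpm1 and the mean of the 6 melanin genes, by an exact permutation within groups (p = 0.0031 for r, adjusted p = 0.0216 over 14 relations, and adjusted p = 0.0432 for rho). Without the 2 pools farthest from the median of the melanin mean, r was 0.938. The call was not kept without those pools (p = 0.0278, adjusted p = 0.194, by an exact test that has fewer arrangements). With 1 pool left out r was 0.968 to 0.986 (exact permutation, adjusted p = 0.0324 to 0.0648), so the call also depended on single pools. The separate Trpm1 probe sets had r of 0.979 (1437445_at), 0.978 (1418935_at), 0.947 (1437531_at) and 0.800 (1440241_at) with the melanin mean. Against the mean of 10 ON bipolar genes, Trpm1 had r = -0.564 and rho = -0.531, with adjusted p of 0.388 and 0.410 by the exact permutation test, and r of -0.360 without the 2 farthest pools. With arrays centred on their median that r was 0.157. The ON bipolar mean hardly varied, between 10.909 and 11.085 in all retinal pools. Its relation with Trpm1 therefore could not show whether ON bipolar cells gave part of the Trpm1 signal, and no contrast with the melanin mean is read from it. Mitf with the melanin mean gave r = 0.780 (adjusted p = 0.0459, exact permutation) and rho = 0.685 (adjusted p = 0.0684), and r = 0.811 without the 2 farthest pools.

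With the melanin mean of each pool as a covariate, an alternative added after the data were seen, the Trpm1 difference between cKO and control retinas was -0.27 ± 0.25 at ZT20 (adjusted p = 0.763). With the same covariate it was -0.088 ± 0.20 at ZT6 (adjusted p = 0.814) and -0.18 ± 0.17 over both times (adjusted p = 0.564). For Mitf the corresponding differences were -0.15 ± 0.17 at ZT20 (adjusted p = 0.821), -0.32 ± 0.13 at ZT6 (adjusted p = 0.135) and -0.23 ± 0.12 over both times (adjusted p = 0.231). The covariate itself differed by genotype at ZT20, at 10.195, 11.006 and 10.235 in cKO pools, against 9.554, 7.355 and 7.789 in control pools. As Trpm1 followed that mean closely, the adjustment takes out most of its genotype difference by construction. No conclusion is drawn from it.

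**Figure D3:**
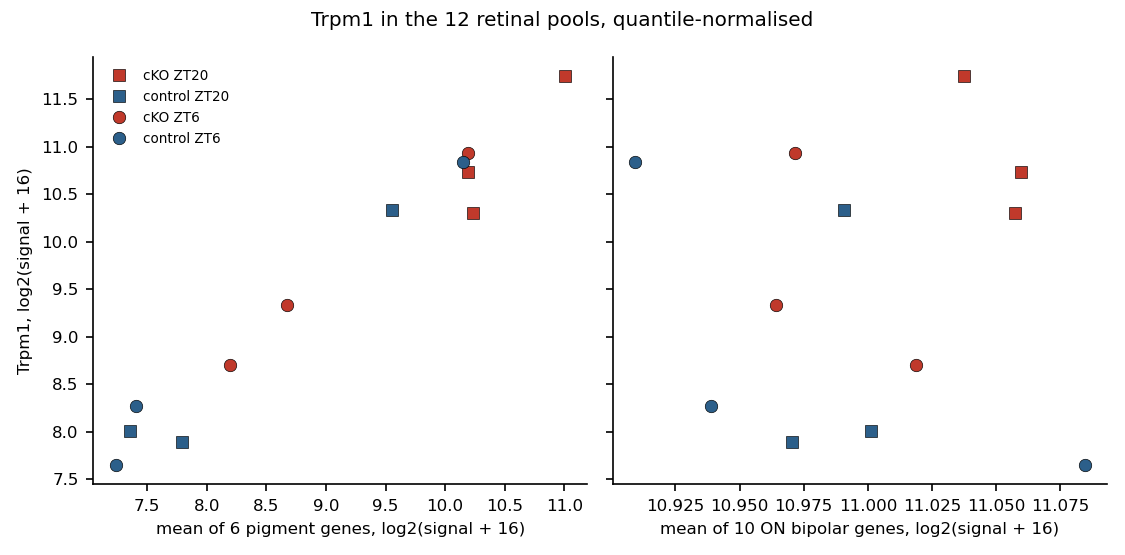
Trpm1 in the 12 retinal pools, as log2 of the quantile-normalised signal + 16, against the mean of the 6 melanin genes (left) and the mean of 10 ON bipolar genes (right) on the same scale; each point is a pool, with cKO and control at ZT20 and ZT6 marked. Points rise along the left panel, with r = 0.979 for deviations from group means, whereas the ON bipolar mean stays between 10.909 and 11.085 in all pools.

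The mean of the ON bipolar genes varied little over the pools in which Trpm1 spanned 18.1 times, between 10.909 and 11.085 on the log2 scale. Single genes varied more: Nyx, a proteoglycan of ON bipolar synapses, had 145.8 to 382.3, Gpr179, an orphan receptor there, had 177.9 to 400.9, and Rgs11, a G protein regulator, had 659.7 to 1383.4. Among the narrower ones, Prkca, the protein kinase C used to stain rod bipolar cells, had 4349.8 to 6122.6, and Isl1, a transcription factor of ON bipolar and other inner retinal cells, had 5481.2 to 6877.2. Of 12 listed genes, 10 were named by the array's table and all 10 were tested. Grm6 and Lrit3 were not named there, so the mean does not include them. Over both times, where 25.6% of all genes passed, 1 was lower and none higher in cKO, namely Gnb5, the G protein beta subunit that partners Rgs7 and Rgs11, by -0.18 ± 0.04 (adjusted p = 0.0090). At ZT20 (10.4% of all genes) the same gene was lower by -0.24 ± 0.06 (adjusted p = 0.0236). At ZT6 (16.9% of all genes) Gnao1, the G protein alpha subunit, was higher by 0.22 and Pcp2, a bipolar G protein modulator, lower by -0.33. The list's median difference was 0.12 at ZT20 and 0.015 over both times.

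Other Trpm channels, cation channels related to Trpm1, were read beside it. Of 7 listed, 3 were tested in retina. Over both times, where 25.6% of all genes passed, Trpm3 was higher in cKO by 0.30 ± 0.08 (adjusted p = 0.0132) and Trpm7 lower by -0.29 ± 0.08 (adjusted p = 0.0144). Of the 3 relatives of Mitf in its family, 1 was tested, Tfe3, and it did not pass, with a difference of 0.028 over both times.

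Of 20 other melanosome genes listed, 19 were named by the array's table and 13 were tested in retina. Over both times 2 were higher and 2 lower in cKO, not far from the share of all genes that passed there, 25.6%. Gpnmb, a melanosome glycoprotein related to Pmel, was higher in cKO by 1.67 ± 0.56 (adjusted p = 0.0431) and Rab27a, which tethers melanosomes, by 0.41 ± 0.12 (adjusted p = 0.0245). Hps3 and Hps4, subunits of complexes that build lysosome-related organelles in many cells, were lower by -0.53 ± 0.10 (adjusted p = 0.0013) and -0.41 ± 0.12 (adjusted p = 0.0220). Gpnmb had signals of 1673.2, 2934.9 and 1952.5 in cKO ZT20 retinas, against 1170.1, 154.2 and 239.0 in control ZT20 retinas. Its high control pool was again pool 1 at night, and by day pool 3, at 1462.9 against 147.0 and 173.9 in the other control pools.

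Over the 10809 genes ranked in retina, the 5 named genes most like the melanin mean in their deviations from group means over the 12 pools were Gpnmb (r = 0.978), Syt17 (0.960), Oca2 (0.957), Mgst1 (0.952) and Ccn2 (0.951). Those most like Trpm1 were Oca2 (r = 0.969), Gpnmb (0.962), Mgst1 (0.961), Abca9 (0.960) and Cald1 (0.956). Gpnmb, Oca2 and Mgst1 stood on both lists, and Oca2 encodes a melanosome chloride channel. Oca2 had signals of 394.3, 476.9 and 390.0 in cKO ZT20 retinas, against 377.0, 185.7 and 202.0 in control ZT20 retinas.

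Markers of the tissues behind the retina were measured beside these results; in the comparison over both times used for them, 25.6% of all genes passed. The mean of 13 genes of the retinal pigment epithelium had r = 0.405 and rho = 0.245 with the melanin mean (adjusted p = 0.353 for r, exact permutation). Of these 13 genes, 12 were tested, 3 were higher and 1 lower in cKO over both times, with a median difference of 0.010. Rpe65, the visual cycle isomerase that defines this epithelium, was the lower one, at -0.59 ± 0.14 (adjusted p = 0.0073), opposite in sign to the melanin genes. The list's summed signal was 32934.6 to 43551.6 in cKO ZT20 retinas, against 29519.7 to 34812.8 in control ZT20 retinas. At ZT6 it was 31199.5 to 39939.7 in cKO retinas, against 24680.2 to 28989.4 in control retinas. Over the retinal pools Krt18 had 2393.9 to 9888.5, Ttr 5244.3 to 9591.5 and Rlbp1 5583.4 to 8582.4. Best1, the dimmest of the list, had 61.8 to 107.9. Krt18 and Ttr were also bright in pineal gland, at 3651.5 to 5912.9 and 13830 to 16002. The sum mostly follows such bright genes, and neither it nor the list's mean singles out pigment epithelium RNA. Rpe65 had 1553.9 to 2585.9 in cKO ZT20 retinas, against 2492.5 to 2750.8 in control ZT20 retinas, and 948.5 to 1906.3 in cKO ZT6 retinas, against 1634.9 to 2023.5 in control ZT6 retinas. The higher ones were Krt18, a keratin, by 1.17 ± 0.08 (adjusted p = 2.9e-07), Slc26a7, an anion transporter, by 0.93 ± 0.16 (adjusted p = 8.1e-04) and Rlbp1, a retinoid binding protein also of Müller glia, by 0.15 ± 0.04 (adjusted p = 0.0241).

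The mean of the 9 choroid and sclera genes had r = 0.899 and rho = 0.867 with the melanin mean (adjusted p of 0.0216 and 0.0324, exact permutation). Without the 2 farthest pools r was 0.705 (p = 0.243 by the same exact test), so the call was not kept without those pools. That test has fewer arrangements. With 1 pool left out r was 0.827 to 0.957 (exact permutation, adjusted p = 0.0324 to 0.0648). The summed signal of the 9 genes was 4858 to 5506 in cKO ZT20 retinas, against 1486.1 to 3249.6 in control ZT20 retinas. At ZT6 it was 1822.3 to 5230.8 in cKO retinas, against 1733 to 4059 in control retinas. Acta2, at 187.9 to 2120.5, and Mgp, at 561.1 to 1897.0, reached the highest signals of the list in retina. Dcn, Lum, Col1a1 and Col3a1 also stand on the list of meningeal fibroblast genes. Neither the sum nor the mean therefore singles out choroid or sclera RNA. Dcn, a proteoglycan of fibroblasts, had 344.4 to 751.4 in cKO ZT20 retinas, against 7.4 to 141.7 in control ZT20 retinas, and its difference was 2.78 ± 1.02 (adjusted p = 0.110). Of 9 genes, 6 were tested, and over both times Plvap, a protein of fenestrated endothelium, was higher in cKO by 0.65 ± 0.13 (adjusted p = 0.0024) and Col1a1, a collagen, lower by -0.47 ± 0.15 (adjusted p = 0.0316). Kera, a keratocyte proteoglycan, was at 0.3 to 10.3 in all retinal pools.

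The melanocyte genes had r = 0.896 and rho = 0.671 with the melanin mean (adjusted p of 0.036 and 0.0702, exact permutation), and r = 0.679 without the 2 farthest pools. Of 6 genes, 4 were tested in retina. Over both times Erbb3, a neuregulin receptor, was higher in cKO by 0.62 ± 0.15 (adjusted p = 0.0086) and Kit, the stem cell factor receptor, by 0.40 ± 0.13 (adjusted p = 0.0372), while Mc1r, the melanocortin receptor, was lower by -0.39 ± 0.14 (adjusted p = 0.0475). The summed signal of the 6 genes was 1787.4 to 2340.6 in cKO ZT20 retinas, against 874.8 to 1240.3 in control ZT20 retinas, and 1345.9 to 1770.4 in cKO ZT6 retinas, against 821.5 to 1522.1 in control ZT6 retinas. Ednrb, the endothelin receptor of melanocytes and other cells, was the brightest of them, at 475.5 to 1786.5 over the retinal pools. Erbb3, Kit and Mc1r stayed at or under 229.2. The sum therefore mostly follows Ednrb and does not single out melanocyte RNA. The lineage factors Pax3, at 0.5 to 45.5, and Sox10, at 6.1 to 76.3, were dim in every retinal pool. The part that pigment epithelium, choroid or melanocyte RNA had in the genotype difference of the melanin genes and Trpm1 was not tested.

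**Figure D4:**
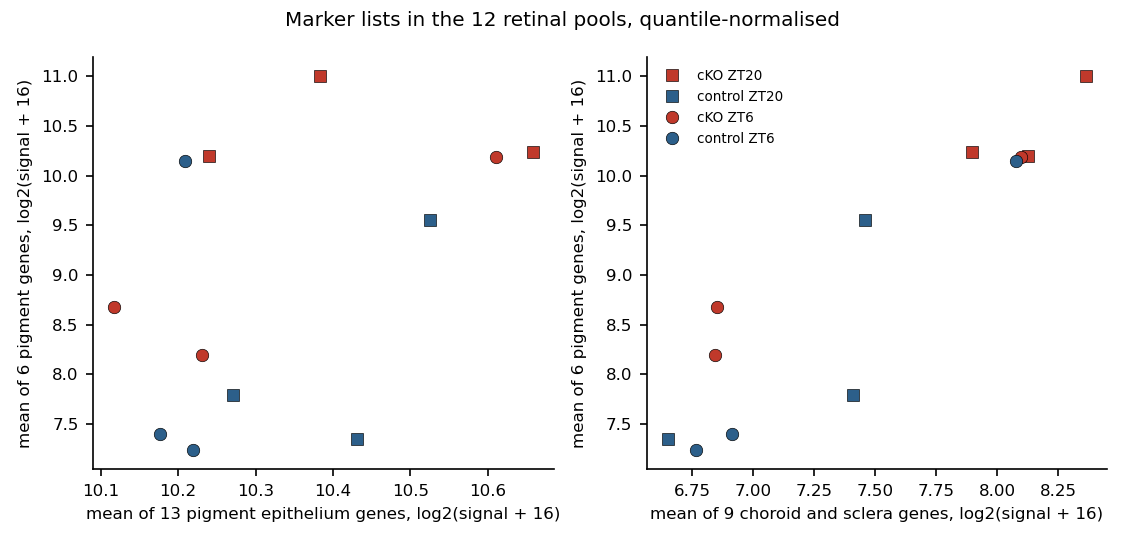
Mean of the 6 melanin genes in the 12 retinal pools against the mean of 13 pigment epithelium genes (left) and of 9 choroid and sclera genes (right), all as mean log2 of the quantile-normalised signal + 16; each point is a pool, with genotype and time marked. The deviations from group means gave r = 0.405 for the pigment epithelium and r = 0.899 for choroid and sclera.

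In pineal gland, 5 of the 8 members were too dim to be tested. Tyr had signals of 0.4 to 16.3 over the 12 pools, Mlana 1.7 to 20.5, Slc45a2 1.7 to 111.9, Trpm1 34.1 to 105.7 and Pmel 41.1 to 100.7. Tyr had 1.2, 2.2 and 1.9 in cKO ZT6 glands, against 16.3, 11.0 and 13.9 in control ZT6 glands, all far under the array medians, and with no filter its difference did not pass, at -0.60 (adjusted p = 0.166). Rpe65 had 1.0 to 36.7 in the gland.

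Dct and Mitf were higher by night in the pineal gland in both genotypes. Dct had 765.7, 1003.6 and 922.2 in cKO ZT20 glands, against 323.0, 356.4 and 210.9 in cKO ZT6 glands. In controls it had 826.8, 693.1 and 1343.8 in ZT20 glands, against 264.4, 301.1 and 217.3 in ZT6 glands. No night pool overlapped a day pool, and Dct rose at ZT20 over ZT6 by 1.61 ± 0.22 in cKO glands (adjusted p = 1.7e-04) and by 1.75 ± 0.22 in control glands (adjusted p = 9.1e-05). Tyrp1, the other melanin gene tested in the gland, did not pass, with differences of -0.48 ± 0.22 in cKO glands (adjusted p = 0.149) and -0.53 ± 0.22 in control glands (adjusted p = 0.0927).

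Mitf was read by both of its probe sets in the gland. Probe set 1455214_at had 11629.6, 11383.4 and 11778.8 in cKO ZT20 glands, against 9359.2, 9377.1 and 8533.6 in cKO ZT6 glands, and 11778.2, 11383.7 and 11891.0 in control ZT20 glands, against 8608.3, 9217.1 and 9246.3 in control ZT6 glands. It rose by 0.38 ± 0.04 in both genotypes (adjusted p = 6.9e-06 in cKO and 7.1e-06 in control glands). The other probe set, 1422025_at, had 1173.5, 1073.0 and 1365.7 in cKO ZT20 glands, against 528.0, 387.0 and 430.2 in cKO ZT6 glands. In controls it had 1225.7, 1093.7 and 1392.4 in ZT20 glands, against 347.2, 384.2 and 538.9 in ZT6 glands. In the fit over all probe sets it rose by 1.46 ± 0.14 in cKO glands (adjusted p = 3.5e-05) and by 1.49 ± 0.14 in control glands (adjusted p = 2.8e-05), a larger difference than that of 1455214_at. Whether the bright probe set was near the top of the array's range was not tested.

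**Figure D5:**
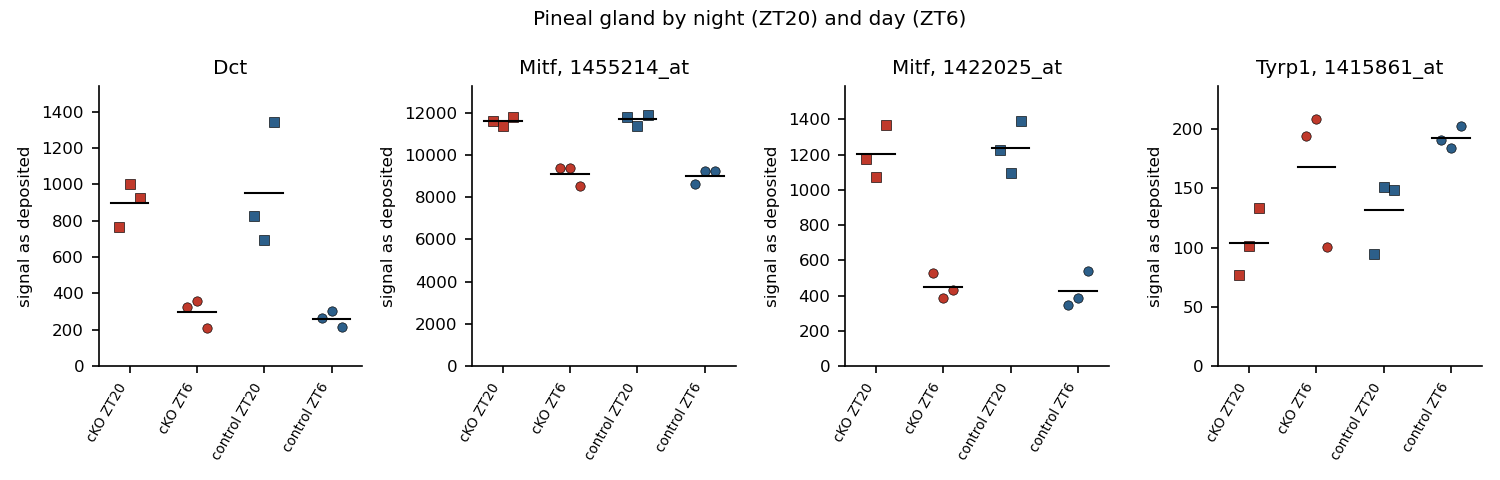
Signal as deposited in pineal glands, for Dct, both probe sets of Mitf and Tyrp1, at ZT20 and ZT6 in cKO and control mice; points are pools and bars are group means (n = 3), and every axis starts at 0. Dct and both Mitf probe sets are higher in every ZT20 pool than in every ZT6 pool of the same genotype, whereas Tyrp1 overlaps in cKO glands and is lower in every ZT20 pool of the controls.

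Of the 3 members tested in pineal gland, 2 were higher at ZT20 in cKO glands, against 18.2% of all 11933 genes in either direction and 8.55% higher. In control glands the same 2 were higher, against 25.9% in either direction and 12.4% higher. As deposited, all ZT20 pools were above all ZT6 pools for 5.48% of genes in cKO glands and for 14.4% in control glands. Between cKO and control glands 0 of 3 members passed at ZT20, where 0.0% of genes passed by limma and 955 had an unadjusted p under 0.05, and 0 of 3 passed at ZT6 (1.89% of genes) and over both times (1.62%). The 3 same-numbered pairs of cKO and control ZT6 glands had deviations correlated at 0.204 to 0.358, and with the replicate number as a block 0 of 3 members again passed at ZT6, while 505 genes passed rather than 226. Without cKO ZT20 pools 2 and 3, also 0 of 3 passed at each time and over both. The day-night difference was not shown to depend on genotype, with 0 of 3 members and 0.0% of genes passing for the interaction, where 1168 genes had an unadjusted p under 0.05. Without cKO ZT20 pools 2 and 3 the night difference in cKO glands was 1.59 for Dct (adjusted p = 0.0106) and 0.41 for Mitf (adjusted p = 8.3e-04). Aanat, the enzyme that sets the nightly melatonin rhythm, was higher at ZT20 by 2.76 ± 0.18 in cKO glands and 2.98 ± 0.18 in control glands, as a check of the time labels.

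Genes of the wider melanosome and melanocyte lists were also read in the gland. Of 18 other melanosome genes tested, 3 were higher and none lower at ZT20 in cKO glands, where 18.2% of all genes passed, namely Rab27a by 0.77 ± 0.17 (adjusted p = 0.0058), Lyst, a lysosome trafficking regulator, by 0.29 ± 0.08 (adjusted p = 0.0198) and Bace2, a protease that cleaves Pmel, by 0.46 ± 0.13 (adjusted p = 0.0271). In control glands, where 25.9% of all genes passed, also 3 were higher and none lower, namely Bace2 by 0.60 ± 0.13 (adjusted p = 0.0046), Tspan10 by 0.71 ± 0.22 (adjusted p = 0.0246) and Hps6 by 0.58 ± 0.17 (adjusted p = 0.0192). The list's median difference was 0.20 in cKO and 0.16 in control glands. Ednrb, the endothelin receptor of melanocytes and other cells, rose by 1.09 ± 0.09 in cKO glands (adjusted p = 1.8e-06) and by 1.36 ± 0.09 in control glands (adjusted p = 2.1e-07). Pax3, the lineage factor that was dim in retina, had 1213.8 to 2363.0 in the gland.

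In pineal gland, 7 relations over pools were tested, with r between -0.483 and 0.503, and none passed. Trpm1 with the melanin mean had r = -0.161 (adjusted p = 0.700, exact permutation) in the gland. Single pairs of members were not tested there, and the highest r was 0.731, between Tyr and Slc45a2, both dim. By likeness over 11065 ranked genes, the named genes nearest to the melanin mean were Hspbp1 (r = 0.971), Fdft1 (0.956), Toe1 (0.956), Flii (0.952) and Rin3 (0.949), and those nearest to Trpm1 were Ifi27 (r = 0.949), Mlycd (0.940), Mns1 (0.933), Dpep1 (0.912) and Pifo (0.911). None of these stood on the retinal lists. Mlana, Tyr, Slc45a2 and Pmel in this mean, and Trpm1 itself, were too dim to be tested in the gland. The relations and likenesses of the melanin mean and of Trpm1 there thus rest largely on signals near background. No contrast with retina is read from them.

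Between the tissues, retina was higher for Tyrp1 and Dct, and pineal gland for Mitf. In cKO mice retina minus pineal gland was 3.45 ± 0.44 for Tyrp1 and 2.45 ± 0.39 for Dct, and in control mice 1.94 ± 0.44 for Tyrp1 and 1.37 ± 0.39 for Dct. Mitf was lower in retina by -2.59 ± 0.09 in cKO and by -2.60 ± 0.09 in control mice. The other 5 members entered this test through their retinal signal and lay near background in the gland, so the size of their differences depends on the offset and scaling, and no order is read from them. Over 12 settings, retina minus pineal gland in cKO mice was 4.65 to 7.87 for Mlana, 3.07 to 7.34 for Tyr, 3.33 to 4.30 for Trpm1, 2.41 to 3.84 for Pmel and 1.12 to 2.87 for Slc45a2. In control mice the ranges were 2.58 to 5.34 for Mlana, 2.12 to 5.06 for Tyr, 2.09 to 3.00 for Trpm1, 0.94 to 2.10 for Pmel and 0.21 to 1.46 for Slc45a2, and in some of these settings Pmel (adjusted p = 0.0162 to 0.0798) and Slc45a2 (adjusted p = 0.0076 to 0.555) did not pass. All 8 members passed in cKO mice, against 78.1% of the 12878 genes tested, and 7 of 8 in control mice, against 79.8%, counts that the entry of dim members through their retinal signal partly sets. The cKO effect in retina minus that in pineal gland passed for 0 of 8 members, against 16.2% of genes, with the lowest adjusted p at 0.0540 for Tyr. The night effect in pineal gland minus that in retina also passed for 0 of 8, against 10.9% of genes, so a nocturnal rise of Dct and Mitf particular to the pineal gland is not shown.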

How the data were processed

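RNA of 24 pools was amplified, labelled and hybridised to Affymetrix Mouse 430 2.0 arrays, per the labels' protocols. The intensity values used are 1 signal per probe set and array on a linear scale, as deposited, made with GCOS per the submitters' processing notes; its scaling is not stated there, and array medians differed between groups.

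Signals were quantile-normalised over the 24 arrays and taken as log2(signal + 16) from the deposited values. Without this step the limma prior degrees of freedom were 153.6 for pineal gland, against 6.81 with it. Of 45101 probe sets, 64 controls were left out, 34945 had 1 gene symbol, 932 several and 9160 none; GEO's platform annotation gave the symbols. Each gene was read from its probe set with the highest mean, _x_at sets last. Genes above the array median on at least 3 of the 12 arrays of a tissue (or of 24) were tested, which left 11692 in retina, 11933 in pineal gland and 12878 over both. Group means were compared in limma 3.58.1 (R 4.3.3) with lmFit and eBayes with a variance trend, and Benjamini-Hochberg adjustment over all genes tested, with a threshold of 0.05.

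Correlations were taken on deviations from the 4 group means of a tissue, with a two-sided exact permutation within groups, whose smallest possible p is 0.000772, adjusted over 14 relations (Python 3.11.15, scipy 1.17.1). Genes of likeness were the 5 with the highest r, leaving out predicted and sex-linked genes. Of other lists, genes that passed and up to 3 bright ones were eligible for naming. In all, 15 marker and pathway lists with 123 genes were written, of which 114 matched the array's symbols.

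The members and lists were chosen with earlier results of these data known. The labels call the pools biological replicates. Same-numbered pools of different groups had correlations of deviations between -0.519 and 0.405 in retina and between -0.234 and 0.358 in pineal gland. All 3 pairs were over 0.1 only between cKO and control ZT6 glands (0.204 to 0.358), where the blocked value is given beside the result; elsewhere the number was not taken to pair pools. Within groups, arrays correlated at 0.983 to 0.992, and no array pair shared over 0.494% identical values, so every pool was counted once. Scripts were tested on simulated data. Promoters came from RefSeq's table on GRCm38.p6. Alternatives covered scaling, the offset, the dim filter, probe sets, the variance model, a replicate block and single pools left out.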

Additional observations from a re-analysis of the deposited data

How the results depend on the processing

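Counts of members passing changed mainly with scaling and with single pools. With signals as deposited, 4 members passed in retina at ZT20, 7 over both times, and 7 for the cKO effect of retina minus pineal gland. With arrays centred on their median the counts were 2 at ZT20 and 4 for the cKO effect, with 1 passing in pineal gland between cKO and control at ZT6, at ZT20 and over both times. Trimmed-mean scaling gave 2 at ZT20 and 3 for the cKO effect, log2(signal + 64) gave 1 and 1, log2(signal + 1) gave 1 for the cKO effect, and the replicate block gave 1 for the cKO effect. The block changed no other count of members by over 1.5 times, and over all genes it gave 44 rather than 145 between night and day in control retinas, 26 rather than 40 in cKO retinas, and 505 rather than 226 at ZT6 and 405 rather than 193 over both times between cKO and control glands. Outside the comparison of cKO and control ZT6 glands pools share only a number, so a call lost under the block is not read as a weaker effect. Over both times the retinal count was 1 without a filter, without a variance trend, with robust eBayes and over all probe sets, each time with Slc45a2 passing and Mlana not, and 0 without cKO ZT20 pools 2 and 3. Leaving out 1 pool gave 0 to 1 members at ZT6, 0 to 6 at ZT20, 0 to 7 over both times, 0 to 7 for the cKO effect and 0 to 1 for the night effect of pineal gland minus retina. Dct and Mitf passed between night and day in pineal gland in both genotypes under every alternative run. The cause of these changes was not tested.

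Differences that changed sign were those of Trpm1 with the melanin mean as a covariate (-0.088 at ZT6, -0.27 at ZT20, -0.18 over both times) and of Mitf. Mitf was at 0.11 at ZT6 as deposited, at -0.15 at ZT20 and -0.23 over both times with the covariate, and over both times at -0.055 with median centring, at -0.085 without cKO ZT20 pools 2 and 3, and at -0.067 to 0.12 with 1 pool left out. At ZT6, leaving out 1 pool put Tyr at -0.017 to 1.09 and Pmel at -0.032 to 1.97.

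Correlations in retina that lost or gained a call or changed sign were as follows. Trpm1 with the melanin mean was 0.938 without the 2 farthest pools and 0.968 to 0.986 with 1 pool left out. Trpm1 with the ON bipolar mean was 0.157 with median centring. Mitf with the melanin mean was 0.725 as deposited, 0.811 without the 2 farthest pools and 0.606 to 0.881 with 1 left out. Mitf with the mast cell mean, 0.423 in the main setting, was -0.019 without the 2 farthest pools and -0.070 to 0.622 with 1 left out. The melanin mean with choroid and sclera was 0.868, 0.705 and 0.827 to 0.957 as deposited, without the 2 farthest pools and with 1 left out. With the melanocyte mean the melanin mean was at 0.882, 0.679 and 0.808 to 0.958 in the same settings. In pineal gland Trpm1 with the melanin mean was 0.023 without the 2 farthest pools and -0.328 to 0.125 with 1 left out. There Mitf with the melanin mean was 0.360 as deposited, 0.026 with median centring and -0.368 to 0.164 with 1 left out, and with the mast cell mean 0.265 as deposited and -0.816 to -0.117 with 1 left out. The pineal melanin mean with choroid and sclera passed with median centring, at 0.761; with the pigment epithelium it was -0.049 to 0.516 and with melanocyte genes -0.390 to 0.619, each with 1 pool left out.

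Over all genes, the number passing in retina was 1578 to 3086 at ZT6, 308 to 1690 at ZT20 and 1318 to 4733 over both times, against 1978, 1221 and 2989 in the main setting. In pineal gland it was 0 to 447 at ZT20, 88 to 4931 at ZT6 and 2 to 6202 over both times, against 0, 226 and 193, and between night and day 1152 to 3541 in cKO and 1018 to 4811 in control glands, against 2172 and 3095. The 3 pools per group limit what could be detected, and Tyr, Mlana, Trpm1, Pmel and Slc45a2 lay so near background in the gland that they were not tested there and the size of their differences between tissues depends on the setting.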
